A study of Caenorhabditis elegans with 2 samples.

Results

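The astacin genes of Caenorhabditis elegans were described by the ChIP-seq peaks of a tagged nuclear hormone receptor, NHR-179, that lay at or in them. The members were the nuclear protein-coding genes of the WBcel235 annotation (the same assembly as ce11) whose symbol begins with nas- and a number, together with dpy-31, hch-1 and toh-1, which made 40 of 19973 genes. A summit, the highest point of a peak, was given to a gene when it lay within 1000 bp of one of its transcript starts or inside the gene. The family was chosen by the summits of its genes in these same lists, so its counts are a description, and no test was run on them.

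Strain OP465 supplied the animals, young adult hermaphrodites taken whole. It carries unc-119(tm4063) III and wgIs465, a transgene for NHR-179 fused to a C-terminal GFP-FLAG tag. The worms were collected 64 hours after synchronization as L1 larvae starved after bleaching, and chromatin was sheared by sonication and precipitated with an antibody against GFP. The 2 biological replicates, numbered 2 and 3, formed 1 group, so no comparison between conditions was possible. No sample of untagged animals was analysed here, and the sequence that drives the transgene is not given in the sources used here.

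Astacins are secreted zinc-dependent metalloproteases that cut proteins outside the cell. In nematodes the family is large, and several of its members act on the cuticle, the collagen coat that is rebuilt at every molt, while others act in hatching or in the pharynx. Of the 40 genes, 39 had a longest predicted protein, read from the reference genome, that held the core zinc-binding motif HExxH, where x is any residue. The exception was nas-21. The longer signature HExxHxxGxxHExxR was in 26 of the 40, with nas-4 among them and nas-10 not. The predicted proteins were 240 to 928 residues long, with a median of 438.

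The authors' optimal list, which holds the 256 highest peaks of a list called on the pooled replicates, had a summit at 2 astacin genes, nas-4 and nas-10. This was 5% of the family, and 0.846% of all nuclear protein-coding genes had such a summit. The sequence at the nas-10 summit is shown because both replicates placed the same peak there, on a tRNA gene. A stretch of nas-38 is shown beside it because it was another gene with replicate summits within 100 bp of each other. Each run is 201 bases of ce11, read 5′ to 3′ from the RefSeq genome of WBcel235. Capitals mark the tRNA gene (72 bases) in nas-10 and the stretch from the summit of one replicate to that of the other in nas-38 (81 bases).
nas-10, chrX:10963772-10963972, plus strand: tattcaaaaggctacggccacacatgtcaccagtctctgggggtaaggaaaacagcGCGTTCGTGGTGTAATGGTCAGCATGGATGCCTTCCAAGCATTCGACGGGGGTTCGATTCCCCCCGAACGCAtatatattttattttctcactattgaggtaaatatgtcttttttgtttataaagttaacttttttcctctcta
nas-38, chrX:561310-561510, plus strand: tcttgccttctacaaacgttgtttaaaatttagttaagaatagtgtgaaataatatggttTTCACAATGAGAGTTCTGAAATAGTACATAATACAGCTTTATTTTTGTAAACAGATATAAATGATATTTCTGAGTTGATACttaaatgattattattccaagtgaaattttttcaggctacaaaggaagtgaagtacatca

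These windows differed in composition. The nas-10 window had 42.3% GC and the nas-38 window 26.9%, and the 233 windows of the same length at nuclear optimal summits had a median of 45.3%. A search on both strands was made for the nuclear receptor half-site AGGTCA, for its variant GGGTCA and for its variant AGTTCA. Other words searched were the repeat GAGAGA, the binding site of GATA factors TGATAA, the word GCGCAGGG and the B box, a stretch inside tRNA genes at which transcription by RNA polymerase III is set up. None of these words contains another. The nas-10 window held the B box, as did 38.6% of the 233 windows, and no other word. The nas-38 window held none of the 7. Among the 233 windows, AGGTCA was in 8.15%, GGGTCA in 3% and AGTTCA in 15.5%. GAGAGA was in 28.8% of them, TGATAA in 10.7% and GCGCAGGG in 6.44%, so most windows lacked each word.

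In the promoters of the family, taken from 250 bases before to 50 bases after the most upstream start, AGTTCA was present in 11 of 40 (27.5%) and in 20.4% of all 19973 promoters. AGGTCA was in 2 of 40 (5%) and in 8.27% of all promoters, and GGGTCA in 3 of 40 (7.5%) and in 4.81%. TGATAA was in 7 of 40 (17.5%) and in 30.2% of all promoters, and GAGAGA in 11 of 40 (27.5%) and in 21.8%. Neither GCGCAGGG nor the B box was in any of the 40, and they were in 0.105% and 0.416% of all promoters. The nas-10 promoter held TGATAA.

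The nas-10 peak had the higher signal of the pair and lay on a tRNA gene. The gene nas-10 (WBGene00003529) lies on X from 10960914 to 10963503 on the minus strand. Its optimal peak ran from 10963650 to 10964093, with the summit at 10963872, 369 bp upstream of the only annotated start. The signal, a value that the authors gave each peak and whose scale is not stated, was 107.7 in the pooled list, where the peak ranked 91 of 9606. In replicate 2 the signal was 43.5 and the rank 247 of 12866, and in replicate 3 the signal was 64.3 and the rank 59 of 13745. In each replicate the peak was among the 256 highest, with summits 1 bp apart.

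The summit fell inside K09C8.t1, a tRNA-Gly gene on the plus strand from 10963828 to 10963899, which is overlapped on the other strand by the non-coding RNA gene K09C8.11. Among protein-coding genes nas-10 had the nearest start, and on the other side of the summit the start of lge-1 lay 2679 bp away. Of the 444 bp of the peak, 12.1% of all words of 32 bases occurred elsewhere in the genome. The tRNA-Gly gene has 29 identical copies on the nuclear chromosomes, itself included, and 6 of these had an optimal summit within 200 bp, 5 of them among the 11 copies on X. Over all 612 nuclear tRNA genes, 116 had one, and tRNA genes on X were not counted apart. Whether the nas-10 peak belongs to the tRNA gene or to nas-10 was not tested. A further summit was listed inside nas-10 in replicate 2, in a coding exon, with a signal of 17.1 and the rank 10606.

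The nas-4 peak lay at the start of its gene and away from small RNA genes. The gene nas-4 (WBGene00003523) lies on III from 6411578 to 6415656 on the minus strand and has 4 annotated starts in a pair of clusters. The optimal peak ran from 6415163 to 6415606 with the summit at 6415385, inside the first intron of the longer transcripts, 263 bp downstream of the nearer start of the upstream cluster and 392 bp upstream of the nearer start of the downstream one. Its signal in the pooled list was 79.8 and its rank 220 of 9606. In replicate 2 the signal was 44.4 with rank 230, inside the 256 highest, and in replicate 3 it was 35.6 with rank 416, outside them. The replicate summits were 43 bp apart. The 256 highest peaks of replicate 2 had a summit at both nas-4 and nas-10 (0.881% of all genes had one), and those of replicate 3 at nas-10 only (0.916% of all genes).

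A second pooled peak at nas-4 overlapped the first, with its summit in the untranslated first exon 30 bp from a start, a signal of 53.0 and rank 911. No summit of a replicate lay within 100 bp of it. Replicate 2 listed a summit 98 bp upstream of the gene with a signal of 38.4 and rank 378, in the gap of 116 bp between nas-4 and the end of atgl-1, which encodes a triglyceride lipase of fat stores. Replicate 3 listed no second summit there. None of the 32-base words of the nas-4 rule window, the sequence in which a summit would be counted, occurred elsewhere in the genome.

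**Figure D1:**
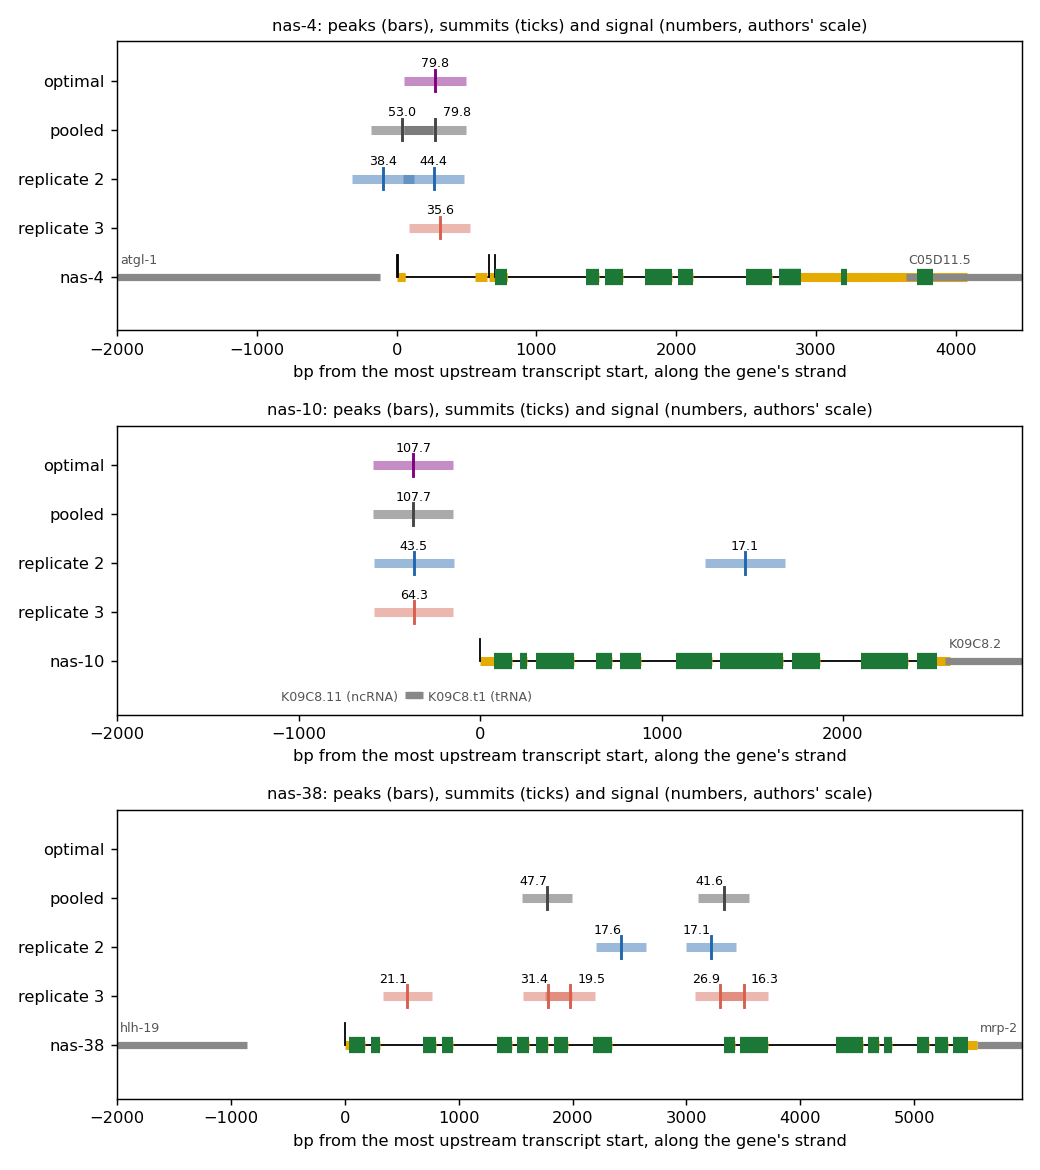
Peaks of the 4 ce11 lists at nas-4, nas-10 and nas-38, drawn by distance in bp from the most upstream transcript start along each gene's strand. Bars are peaks, ticks are summits and numbers are signals on the authors' scale, green blocks are coding exons, yellow blocks untranslated exons, black ticks transcript starts and grey bars other genes. The optimal summits stand at the start of nas-4 (79.8) and over the tRNA gene upstream of nas-10 (107.7), and nas-38 has none.

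The peak at nas-4 stood closer to the limit of the optimal list than that at nas-10. The lowest optimal peak had a signal of 74.7 and the next pooled peak 74.6. The optimal list of the other build, ce10, held 208 peaks and its lowest signal was 81.5. A peak of the same chromosome and width, with a signal within 0.1 of that on ce11, was in the ce10 list for nas-10 (signal 107.7, rank 91) and not for nas-4.

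Outside these genes the peaks of the family were weak and seldom recurred. The pooled list, which holds background regions as well as peaks, had 18 summits at 12 of the 40 genes (30%), and 31.2% of all nuclear protein-coding genes had a pooled summit. The 18 signals ran from 30.2 to 107.7 with a median of 37.5, and the list as a whole had a median of 36.3. The authors' −log10 q-value was 2.48 at the nas-10 summit and 1.94 at the optimal nas-4 summit. At the rest of the 18 it was 0.666 or lower. Of the 18 summits, 9 lay in introns, 4 in coding exons, 2 in untranslated exons and 3 upstream of the gene, and 6 were within 1000 bp of a start. Summits within 100 bp were listed in both replicates for 2 of the 18 (11.1%), in replicate 2 alone for 1, in replicate 3 alone for 9 and in neither for 6. For all 9583 nuclear pooled summits these shares were 24.5%, 31.2%, 31.5% and 12.7%. The 2 were those of nas-10 and nas-4, which made 5% of the family, and 9.63% of all genes had a pooled summit seen in both replicates.

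**Figure D2:**
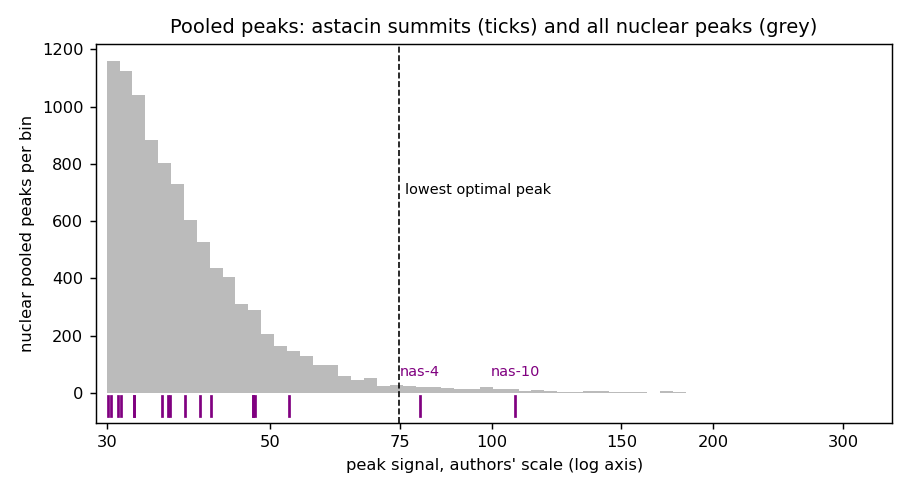
Number of nuclear pooled peaks per bin of signal (grey, horizontal log axis on the authors' scale), with the 18 pooled summits at astacin genes as ticks under the axis and the lowest optimal peak as a dashed line. The summits of nas-10 (107.7) and nas-4 (79.8) stand right of the line, and the other 16 ticks lie left of it, among the many weak peaks.

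The replicate lists named partly different members. They also differed over all genes, where replicate 2 named 7759, replicate 3 named 8322 and both named 4720. Replicate 2 had 21 summits at 13 of the 40 genes (32.5%, against 38.8% of all genes), and replicate 3 had 30 summits at 17 (42.5%, against 41.7% of all genes). Signals at members ran from 16.4 to 44.4 in replicate 2 and from 15.9 to 64.3 in replicate 3. Both lists named 10 genes, namely nas-4, nas-8, nas-9, nas-10, nas-12, nas-13, nas-30, nas-38, nas-39 and hch-1, which is 25% of the family where 23.6% of all genes were named by both. Only in nas-4, nas-10 and nas-38 were any summits of the 2 replicates within 100 bp of each other. The share of all genes with such a pair was not counted, so this cannot be called low or high for the family. In nas-12 the closest pair was 177 bp apart, upstream of the gene, with signals of 21.7 in replicate 2 and 23.2 in replicate 3. Replicate 2 alone named nas-6, nas-33 and nas-36, and replicate 3 alone named nas-7, nas-11, nas-15, nas-17, nas-25, nas-29 and nas-32. In the pooled list alone were nas-5 and nas-37.

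**Figure D3:**
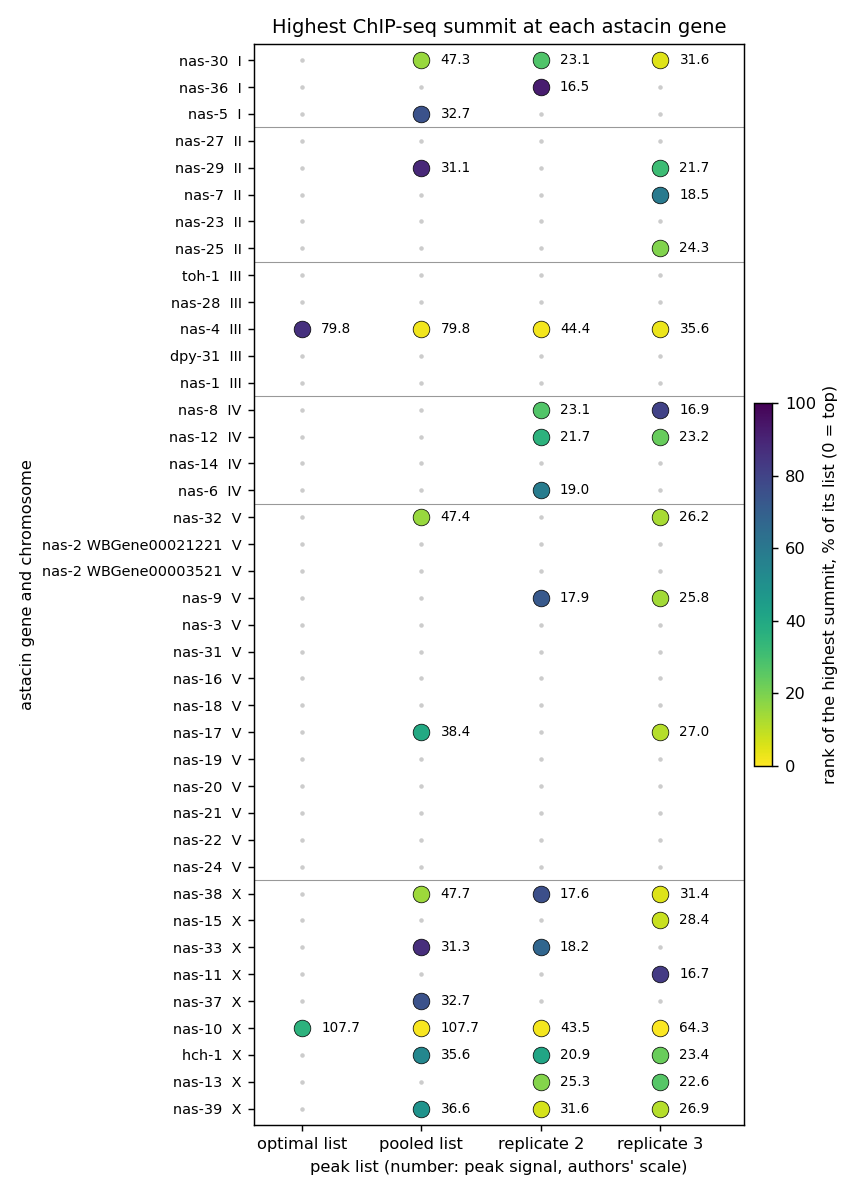
Highest summit of each of the 40 astacin genes (rows, in chromosome order) in the optimal, pooled, replicate 2 and replicate 3 lists. Circles are coloured by rank as a percentage of the list, the numbers are signals on the authors' scale, and grey dots mark genes with no summit. Only nas-4 and nas-10 are near the top of the pooled list and of both replicate lists, and long runs of genes on V have no summit.

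At dpy-31, nas-36 and nas-37, which have described roles in the cuticle, there was no summit or 1 weak summit. Of all genes, 42.3% had no summit in any list. DPY-31 is the protease that trims the C-terminal propeptide of the cuticle collagen SQT-3, and no list had a summit at dpy-31. NAS-36 and NAS-37 are needed to shed the old cuticle. At nas-36 replicate 2 listed 1 summit in a coding exon (signal 16.5, rank 11857), and at nas-37 the pooled list had 1 in a coding exon (signal 32.7, rank 7198) that neither replicate listed. None of these summits was in the upper 50% of its list.

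The gene nas-38, whose product acts in the epidermis and affects sleep at the molt, carried 2 pooled summits and the most replicate summits of any member, 2 in replicate 2 and 5 in replicate 3. The pooled summit in a coding exon had a signal of 47.7 (rank 1424), and replicate 3 listed it with a signal of 31.4 (rank 712). The other, in an intron, had a signal of 41.6 (rank 2686), with 26.9 in replicate 3 (rank 1552), while the summit of replicate 2 (signal 17.1, rank 10703) lay 80 bp from that of replicate 3. The 2 replicates thus had intronic summits within 100 bp of each other in nas-38, and that of replicate 2 stood low in its list. The replicate 2 summit was not within 100 bp of the pooled one, so this pooled summit was not counted as seen in both.

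The member most like vertebrate tolloid proteases, nas-39, is also the longest gene of the family (14407 bp) and had 3 pooled summits. Their signals were 30.2, 36.3 and 36.6. The highest lay in an intron on F38E9.t2, a tRNA-Arg gene, and replicate 2 listed a summit 108 bp from that gene with a signal of 31.6 (rank 830). Replicate 3 listed none within 200 bp of it and had its highest nas-39 summit elsewhere in the gene (signal 26.9, rank 1556). The gene toh-1, named as a tolloid homologue, had no summit in any list.

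At hch-1, nas-6 and nas-7 no summit of one replicate lay within 100 bp of a summit of the other. The share of all genes with such a pair was not counted. The 9.63% of all genes with a pooled summit seen in both replicates is another measure. At nas-6 and nas-7 only 1 replicate listed any summit, so no pair was possible there. HCH-1 is a protease of hatching that is also needed for the migration of the Q neuroblasts. At hch-1 the pooled list had 1 intronic summit (signal 35.6, rank 5160), which replicate 3 placed 2 bp away (signal 23.4, rank 3123). Replicate 2 listed a summit in a coding exon (signal 18.1) and one 515 bp upstream (signal 20.9), neither within 100 bp. NAS-6 acts in the pharynx. At nas-6 replicate 2 listed 1 intronic summit (signal 19.0, rank 7516), and at nas-7 replicate 3 listed 1 in a coding exon (signal 18.5, rank 8136).

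Of the remaining genes with a pooled summit, nas-32 and nas-30 had the highest signals. The nas-32 summit lay 342 bp upstream of the start (signal 47.4, rank 1474), and replicate 3 alone listed it (signal 26.2, rank 1804). At nas-30 the pooled list had 3 summits deep in the gene, with signals of 30.4, 40.1 and 47.3. The one with 40.1 lay 16 bp from Y95B8A.t1, a tRNA-Trp gene in an intron, and neither it nor the one with 47.3 had a partner in replicate 2. In nas-17, nas-5, nas-33 and nas-29 the pooled signals were 38.4, 32.7, 31.3 and 31.1. The genes with tRNA genes in their rule windows were nas-10, nas-30 and nas-39, and no member had an snRNA, snoRNA or rRNA gene there.

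Some members had summits in one or both replicate lists and none in the pooled list. At nas-15 replicate 3 listed a pair of intronic summits with signals of 28.4 (rank 1176) and 20.6 (rank 5378). At nas-13 replicate 2 listed summits 179 and 405 bp upstream of the start (signals 25.3 and 19.0), and replicate 3 listed one in a coding exon 2585 bp from the nearer of these (signal 22.6). At nas-9 the replicate 3 summit in a coding exon had a signal of 25.8 (rank 1921), and the 2 summits of replicate 2 had signals of 17.9 and 17.1. These summits of nas-9 and nas-13 did not coincide between the replicates. At nas-8 replicate 2 listed 1 intronic summit (signal 23.1) and replicate 3 listed 3 others, with signals of 15.9 to 16.9. At nas-11 replicate 3 listed 1 in a coding exon (signal 16.7).

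The distance of 1000 bp decided few members. The farthest summits that it let in outside a gene were those 851 bp upstream of nas-5 in the pooled list (signal 32.7) and 842 bp upstream of nas-25 in replicate 3 (signal 24.3). The nearest that it kept out lay 1116 and 1118 bp upstream of nas-27 in replicate 2 and the pooled list (signals 21.9 and 35.7), and 1242 bp upstream of nas-36 in the pooled list (signal 31.7).

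Summits were spread unevenly over the chromosomes that carry the family. All 9 members on X had a summit in at least 1 of the 4 lists, as did 74.9% of all protein-coding genes on X, and so did all 3 on I, where 51.5% of all genes did. On V it was 3 of 14 (21.4%, against 56.3% of all genes on V), and on III 1 of 5 (20%, against 57.3%). On II it was 3 of 5 (52.9% of all genes on II) and on IV 3 of 4 (56.3% of all genes on IV). In all, 18 of the 40 (45%) had none, and 42.3% of all genes had none. These 18 genes were nas-1, both genes named nas-2, nas-3, nas-14, nas-16, nas-18, nas-19, nas-20, nas-21, nas-22, nas-23, nas-24, nas-27, nas-28, nas-31, dpy-31 and toh-1. Their rule windows had a median of 3101 bp, and those of the 22 genes with a summit a median of 4564 bp. Per 10 kb of rule window the family had 1.74 pooled summits on X and 0.456 on V, and all protein-coding genes had 1.59 on X and 1.07 on V. The optimal list had a summit at 1 of the 9 members on X, where 1.98% of all genes had one, and at 1 of the 31 on the autosomes, where 0.667% of all genes had one. The pooled list had one at 6 of 9 on X (47.3% of all genes on X) and at 6 of 31 on the autosomes (28.7% of all autosomal genes). Replicate 2 had one at 6 of 9 on X (53.5%) and at 7 of 31 on the autosomes (36.5%), and replicate 3 at 7 of 9 on X (58.6%) and at 10 of 31 on the autosomes (39%), with the shares of all genes in parentheses.

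**Figure D4:**
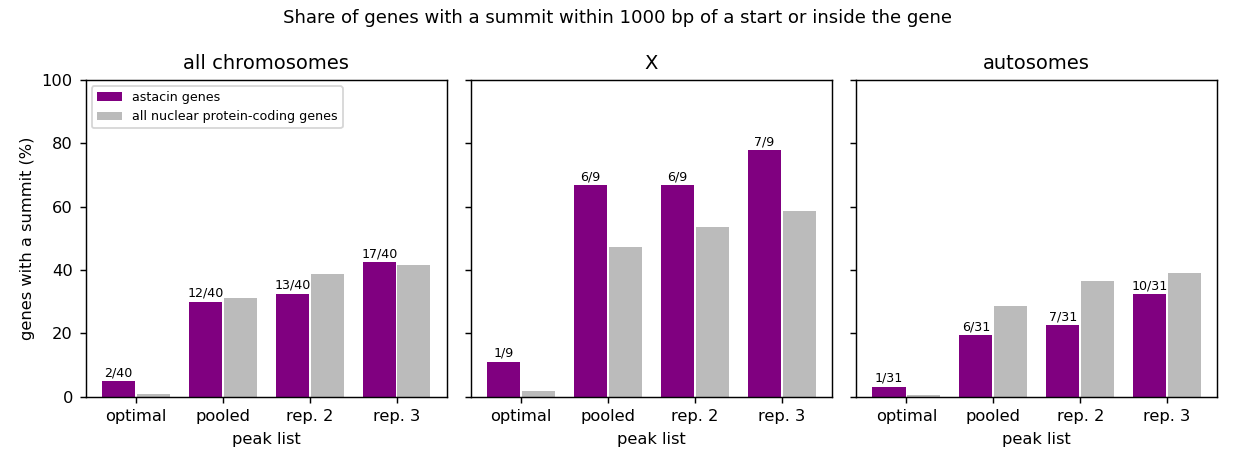
Percentage of genes with a summit in each of the 4 lists, for astacin genes (purple, with counts over the bars) and all nuclear protein-coding genes (grey), over all chromosomes, on X and on the autosomes. Over all chromosomes the pooled share is 30% for astacin genes and 31.2% for all genes, and both kinds of gene have higher shares on X than on the autosomes.

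On V, the symbol nas-2 belongs to a pair of genes, WBGene00021221 from 2358801 to 2360543 and WBGene00003521 from 2466762 to 2468504. Their 1743 bp differed at 0 positions, and the identity ran on for 11421 bp before and 18103 bp after them. All 32-base words of both rule windows therefore occurred elsewhere in the genome. No list had a summit within 15114 bp of the first or within 97528 bp of the second. How reads that match more than 1 place were treated is not given in the sources used here, and their part in the missing peaks at nas-2 was not tested. The windows of nas-18 (31.6%) and nas-22 (21.9%), which sit in the clusters nas-16 to nas-19 and nas-20 to nas-22 on V, and that of nas-30 (10.9%) followed, and for 35 of the 40 genes 5% or less of the words occurred elsewhere.

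Genes that work beside the astacins in the cuticle were counted by the same rule. Of 19 genes of collagen processing and molting, 7 had a pooled summit (36.8%, against 31.2% of all genes) and 0 had an optimal one (0.846% of all genes). Replicate 2 had a summit at 10 of the 19 (52.6%, against 38.8% of all genes) and replicate 3 at 12 (63.2%, against 41.7%). Both replicate lists named 9 of them (47.4%, against 23.6% of all genes). The median rule window of this set was 5891 bp, against 3045 bp for all genes, and its part in these shares was not tested. In 2 of the 19 (10.5%), sqt-3 and mlt-10, a pooled summit was seen in both replicates, as in 9.63% of all genes. At sqt-3, the collagen that DPY-31 trims, it lay in a coding exon 339 bp from the start on V at 12353660 with a signal of 52.8 (rank 925), which was 33.2 in replicate 2 (rank 660) and 19.8 in replicate 3 (rank 6275). At mlt-10, which encodes a secreted protein of the molt, it lay in a coding exon with a signal of 53.8 (rank 860), which was 31.98 in replicate 2 (rank 786) and 19.9 in replicate 3 (rank 6110). Both summits stood higher in the list of replicate 2 than in that of replicate 3.

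Of 15 genes of other extracellular metalloproteases, the matrix metalloproteases and the ADAM and ADAMTS proteases, 9 had a pooled summit (60%, against 31.2% of all genes) and 0 had an optimal one (0.846% of all genes). This set has 40% of its genes on X and a median rule window of 7059 bp, against 22.5% and 4073 bp for the astacins and 13.7% and 3045 bp for all genes. On X, 5 of its 6 genes had a pooled summit (83.3%, against 47.3% of all genes on X). On the autosomes 4 of 9 did (44.4%, against 28.7% of all autosomal genes). The part of chromosome and window length in the 60% was not tested. In adm-4 alone (6.67% of the set, against 9.63% of all genes), an ADAM gene on X, a pooled summit was seen in both replicates, in an intron, with a signal of 41.5 (rank 2709), which was 16.6 in replicate 2 (rank 11590) and 23.6 in replicate 3 (rank 2968).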

How the data were processed

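ChIP-seq of tagged NHR-179 in whole worms was analysed from the peak lists that the authors deposited, with 1 list for each of replicates 2 and 3, 1 from the pooled replicates and 1 optimal list, on ce11. Going by the names and notes of the deposited files, the replicate and pooled lists contain background regions beside peaks and were derived from alignments and a control alignment, and the optimal list was thresholded by the irreproducible discovery rate, which measures how well ranked peaks recur. The aligner, the peak caller, their versions and the filters are not given in the sources used here. Each deposited peak has a signal, used only to rank and describe peaks within a list. The authors also gave a −log10 q-value per peak, which was not used to choose or rank peaks. Depth is unknown, since no read counts are in the files. Of the ce10 lists, the optimal one alone was used.

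Summits were joined to Ensembl release 115 gene models of WBcel235 with Python 3.11.15, and positions are counted from 1. Sequences, of which 1 is not reported here, came from the RefSeq genome of that assembly, and predicted proteins from its translation with Biopython 1.88. Small RNA genes were tRNA, snRNA, snoRNA and rRNA genes within 200 bp of a summit. Replicates shared a summit within 100 bp. The assignment of summits was tested on simulated summits. The named genes were members with an optimal summit, up to 12 with a pooled summit seen in both replicates, dpy-31, hch-1, toh-1, nas-6, nas-7 and nas-36 to nas-39 for their described roles, and those nearest the distance limit. Other genes with values were named after their values were seen. The members and lists were chosen with earlier results of these data known. With 1 group of 2 replicates and no read counts, no test was run.

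Alternatives used distances of 500 and 2000 bp, starts without gene bodies, whole peak intervals, the nearest gene only, no summits near small RNA genes, the upper 50% of each list, the 512 highest pooled peaks, either replicate alone, and 50 bp or overlapping intervals for shared summits. The ce10 list was added after the data were seen.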

Additional observations from a re-analysis of the deposited data

How the results depend on the processing

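Of 43 alternative counts, 32 stayed within 1.5 times the reported one. The number of members with an optimal summit was 2, and it was 1 without summits near small RNA genes (nas-4), 1 in the upper 50% by signal (nas-10) and 1 in the ce10 list (nas-10). When the highest peaks of a single replicate were used it ran from 1 without replicate 2 (nas-10) to 2 without replicate 3. The number with a pooled summit was 12, and it was 5 with starts only and 7 in the upper 50% of the list. The number in replicate 2 was 13, and 8 in the upper 50%. The number in replicate 3 was 17, and 10 with starts only. The number with a pooled summit seen in both replicates was 2. It was 1 without summits near small RNA genes (nas-4), and 4 with overlapping intervals called shared (nas-4, nas-10, nas-38 and nas-39). It was 3 without replicate 3 and 8 without replicate 2, where 1 replicate is enough and the condition is looser by construction. The cause of the other changes was not tested. No paired analysis was possible because the samples form 1 group. Depths are unknown, so a gene with no summit cannot be called unbound.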

Other observations

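Within 10 kb of an astacin gene start, the optimal peak with the highest signal lay outside the rule. It ran on I from 933293 to 933736 with its summit at 933515, 4968 bp upstream of nas-30, which has the nearest protein-coding start. Its pooled signal was 151.5 (rank 40 of 9606). In replicate 2 the signal was 80.5 (rank 42) and in replicate 3 it was 95.5 (rank 27), with summits 1 bp apart. No annotated gene covered the summit and no small RNA gene lay within 200 bp. This peak was singled out after its values were seen.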
